A study of Homo sapiens with 6 samples.

Results

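The 60 genes described here encode the machinery that builds ribosomes: the PELP1 complex with its nucleolar partners, nucleolar chaperones, the core proteins of small nucleolar ribonucleoproteins (snoRNPs), assembly factors of the large (60S) and small (40S) ribosomal subunits, and RNA polymerase I with its factors. They were taken by gene symbol, and all 60 were found among the 23228 symbols counted and had enough reads to be tested. Ribosome assembly starts in the nucleolus, where RNA polymerase I transcribes the rRNA precursor. SnoRNPs modify this precursor, and separate sets of assembly factors fold and cut it into the rRNAs of the 40S and the 60S subunit. PELP1, TEX10 and WDR18 form a complex that works with the SUMO protease SENP3, the LAS1L endonuclease, the NOL9 polynucleotide kinase and the MDN1 ATPase in the late nucleolar maturation of the 60S subunit.

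RNA-seq had been done on MDA-MB-231 cells, a human cell line established from a triple negative breast cancer (TNBC), as 3 replicates of cells stably carrying a control non-targeted shRNA and 3 replicates of cells stably carrying a PELP1 shRNA (PELP1-KD). Both groups were transduced with lentiviral particles and selected with puromycin, and the knockdown rests on a single PELP1 shRNA. The labels do not say that the replicates of a group were selected separately, so p-values measure the spread between these samples, which may be technical. Library totals on genes ran from 17304864 to 23132102 reads, where 3 reads are 0.127 to 0.177 CPM, and replicates of a group differed by more than sampling noise (chi-square per degree of freedom of 1.47 or above). VIM, CD44 and AXL, which mark this mesenchymal line, had between 827 and 2291 CPM, whereas ESR1, PGR and CDH1 had at most 0.225 CPM and the leukocyte gene PTPRC had no read. CD44 was between 1184 and 1244 CPM in the controls and between 827 and 830 CPM in PELP1-KD. VIM was between 2087 and 2291 CPM in the controls and between 1909 and 1930 CPM in PELP1-KD. For AXL the ranges were 1424 to 1464 CPM and 1289 to 1343 CPM. GATA3, FOXA1 and EPCAM lay between 0 and 11.2 CPM, and COL1A1, a fibroblast gene, was between 5.13 and 7.08 CPM in the controls and between 16.9 and 19.8 CPM in PELP1-KD. The part of these markers in the results was not tested. Levels are given as CPM, counts per 1000000 reads after scaling of the libraries by TMM factors, and changes as the log2 fold change (log2FC) of PELP1-KD against control with its standard error (SE). A gene was called lower or higher at an adjusted p below 0.05.

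With the PELP1 shRNA, 20 of the 60 genes had a lower level, 7 had a higher level and 33 were not called. Among all 12796 tested genes, 24.2% were lower and 22.7% were higher, or 46.9% in either direction, so that the 45.0% of members called was close to the background. Within it, 33.3% of the members fell and 11.7% rose. PELP1 apart, the log2FC ran from -0.50 in UTP3 to 0.23 in BOP1, the median over the 60 genes was -0.057, and the median over all tested genes was 0.0014. PELP1-KD replicates lay below every control replicate in 26 members and above in 10, against 28.0% and 27.0% of all tested genes, or 55.0% in either direction. Leaving out single replicates gave 18 to 21 members lower, the fewest without control replicate 2, and 3 to 8 higher, the fewest without PELP1-KD replicate 3. Of all tested genes, 21.6% were lower and 19.5% higher without control replicate 2. Without PELP1-KD replicate 3 these shares were 21.2% and 19.2%. The split depended on the scaling of the libraries. With library totals in place of TMM factors, 14 members were lower and 15 were higher, while all tested genes shifted from 3103 lower and 2904 higher to 2418 and 3817. In bulk RNA, fewer cells that express a gene and less RNA per cell cannot be told apart, and the amount of RNA per cell was not measured.

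**Figure D1:**
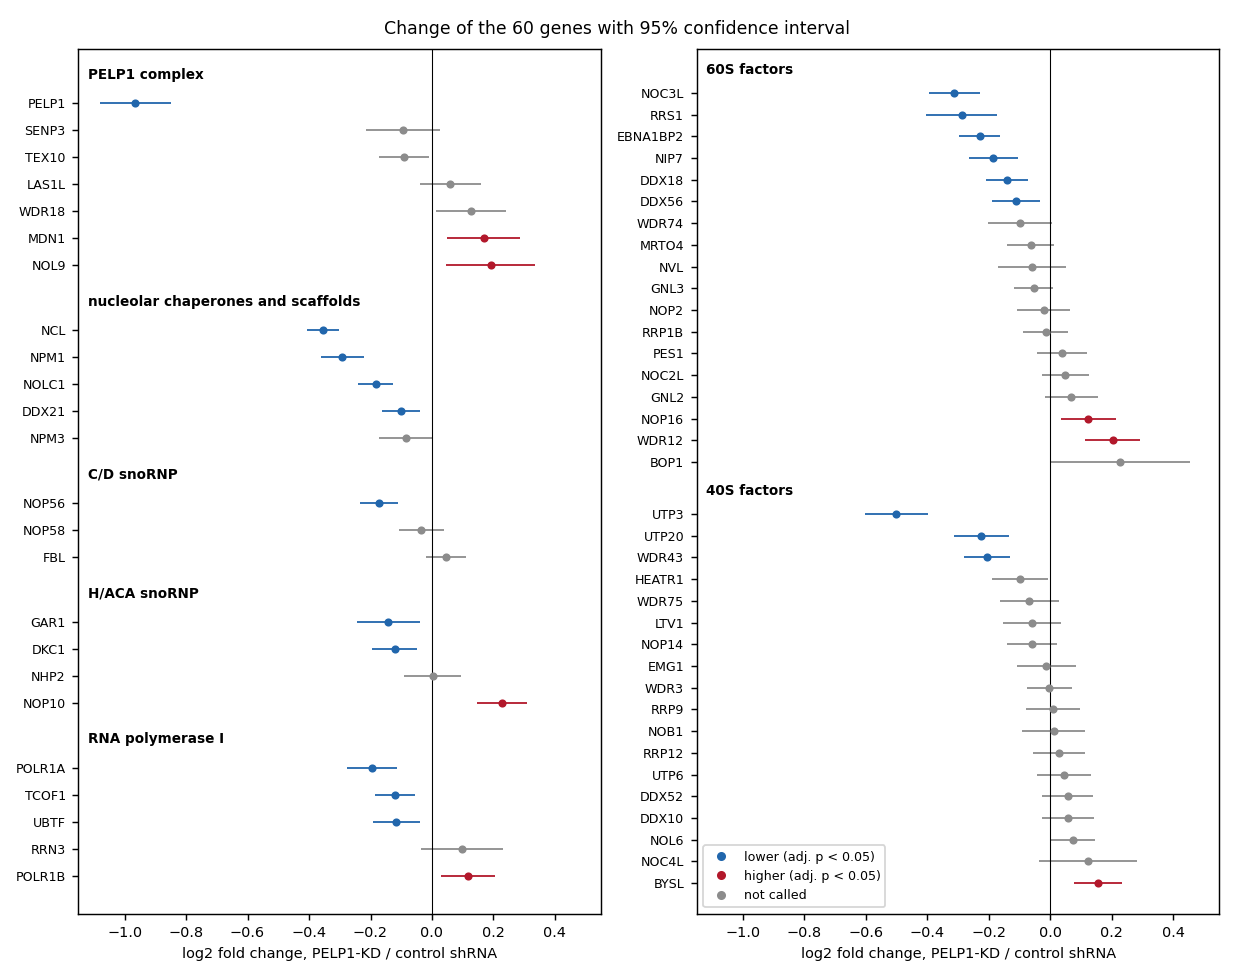
Log2 fold change of each of the 60 genes, PELP1-KD against control shRNA, grouped by role and ordered within it, with 95% confidence intervals. Blue points are genes called lower, red points genes called higher and grey points genes not called at an adjusted p below 0.05. PELP1 stands apart at -0.97, and the other 59 genes lie between -0.50 and 0.23.

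The shRNA lowered its target, and in the same fit no other gene of the PELP1 complex was called lower. PELP1 was covered by 968, 1274 and 1069 reads in the control replicates, here and below in the order 1 to 3, and by 557, 637 and 712 reads with the PELP1 shRNA. Scaled, it had 57.2, 56.1 and 60.2 CPM in the controls and 28.6, 29.9 and 30.3 CPM in PELP1-KD. Its mean was 48.9% lower in PELP1-KD, with groups that did not overlap and a log2FC of -0.97 (SE 0.0552, adjusted p = 1.48e-11 by edgeR). With 3 replicates against 3, the two-sided exact permutation test gave p = 0.1, the smallest it allows.

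The other subunits of the core complex had small differences in opposite directions. TEX10 had 126, 122 and 122 CPM in the controls and 117, 117 and 113 CPM in PELP1-KD, a log2FC of -0.09 (95% interval -0.17 to -0.0089, adjusted p = 0.0633 by edgeR), and all PELP1-KD replicates were below the controls. WDR18, a WD-repeat subunit, had 78.8, 90.8 and 93.4 CPM in the controls and 92.9, 101 and 94.0 CPM in PELP1-KD, with groups that overlapped and a log2FC of 0.13 (95% interval 0.014 to 0.24, adjusted p = 0.0605 by edgeR). The value of WDR18 moved with single libraries and with the scaling. It was 0.17 (adjusted p = 0.0196 by edgeR) without control replicate 3 and 0.18 (adjusted p = 0.0132 by edgeR) with library totals, both past the threshold. It was 0.059 (adjusted p = 0.294 by edgeR) without control replicate 1, 0.091 (adjusted p = 0.238 by edgeR) without PELP1-KD replicate 2 and -0.0071 (adjusted p = 0.883 by edgeR) with an offset for GC content. SENP3, which removes SUMO from PELP1 and NPM1, had 32.7, 32.6 and 32.3 CPM in the controls and 31.2, 29.5 and 30.7 CPM in PELP1-KD and a log2FC of -0.094 (95% interval -0.22 to 0.027, adjusted p = 0.194 by edgeR). With the GC offset it was called lower, at -0.17 (adjusted p = 0.0123 by edgeR). In the GENCODE annotation, 41.2% of the exonic bases of SENP3 are shared with the SENP3-EIF4A1 readthrough gene, so its count is uncertain if such reads were left unassigned. LAS1L, the endonuclease that cuts the second internal spacer of the rRNA precursor, had 71.3, 76.8 and 69.5 CPM in the controls and 76.6, 75.1 and 75.5 CPM in PELP1-KD, with overlapping groups and a log2FC of 0.06 (95% interval -0.039 to 0.16, adjusted p = 0.315 by edgeR).

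NOL9, which processes the end left by this cut, and MDN1, the giant ATPase that strips PELP1 complex proteins from the pre-60S particle, were called higher. NOL9 had 24.8, 24.7 and 28.9 CPM in the controls and 30.7, 28.97 and 29.7 CPM in PELP1-KD, and its log2FC was 0.19 (SE 0.0691, adjusted p = 0.0286 by edgeR). MDN1 had 33.7, 34.0 and 32.5 CPM in the controls and 38.7, 36.3 and 37.7 CPM in PELP1-KD, and its log2FC was 0.17 (SE 0.0569, adjusted p = 0.0192 by edgeR). Every PELP1-KD replicate was above every control replicate in both genes. Neither call held in every fit with 1 replicate left out. Such fits also call fewer genes in all. Without PELP1-KD replicate 3, 2723 of all tested genes were lower and 2470 were higher, against 3103 and 2904 with all replicates. NOL9 was not called without control replicate 1, at 0.16 (adjusted p = 0.0628 by edgeR), control replicate 2, at 0.15 (adjusted p = 0.148 by edgeR), PELP1-KD replicate 1, at 0.17 (adjusted p = 0.0943 by edgeR), or PELP1-KD replicate 3, at 0.19 (adjusted p = 0.0689 by edgeR). MDN1 was not called without control replicate 3, at 0.15 (adjusted p = 0.0750 by edgeR), PELP1-KD replicate 1, at 0.15 (adjusted p = 0.0685 by edgeR), or PELP1-KD replicate 3, at 0.17 (adjusted p = 0.0577 by edgeR).

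**Figure D2:**
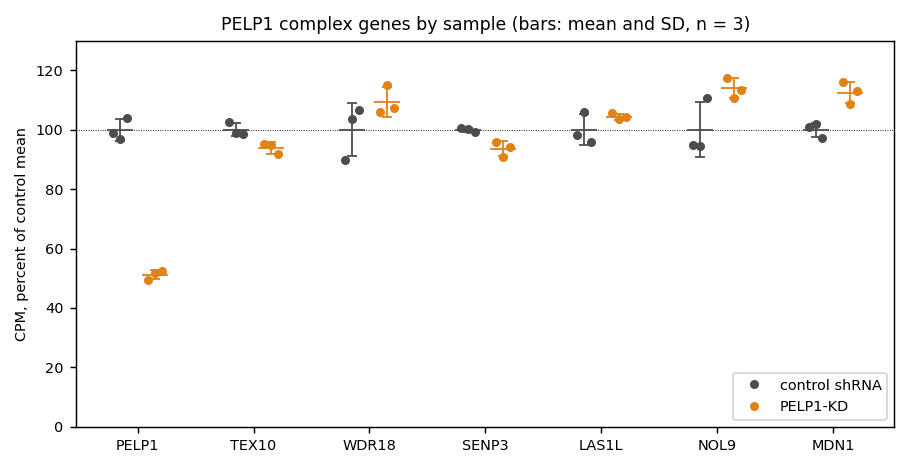
CPM of the 7 genes of the PELP1 complex and its partners in each replicate, as a percent of that gene's control mean, with the mean and SD of 3 replicates. PELP1 fell by 48.9% in PELP1-KD, while the means of the other 6 genes differed by between -6.29% and 13.9%.

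Of the 5 nucleolar chaperones and scaffolds, 4 were lower and 0 were higher. Among all tested genes 24.2% were lower and 22.7% were higher. The half-width of the 95% interval had a median of 0.061 in this set and 0.132 over all tested genes, so smaller changes could be called here. The mRNAs of this set were abundant and held most of the difference in the summed level of the 60 genes. The median log2FC of the set was -0.18, and it was -0.13 with library totals and -0.17 with an offset for GC content. NCL, nucleolin, which binds nascent rRNA precursors, had 1616, 1537 and 1532 CPM in the control replicates, against 1222, 1215 and 1226 CPM with the PELP1 shRNA. All PELP1-KD replicates were well below the lowest control, and the log2FC was -0.35 (SE 0.0257, adjusted p = 5.55e-10 by edgeR). NPM1, nucleophosmin, a histone chaperone and a substrate of SENP3, had 682, 649.7 and 657 CPM in the controls and 555, 511 and 558 CPM in PELP1-KD, with groups that did not overlap and a log2FC of -0.29 (SE 0.0333, adjusted p = 4.36e-07 by edgeR). GENCODE lists 45 pseudogenes named after NPM1. Reads that align to several places, between 32.5% and 32.9% of all counts of each library, were assigned to no gene, so that the level of NPM1 is uncertain. NOLC1, which carries snoRNPs, had 649.8, 631 and 625 CPM in the controls and 563, 557 and 558 CPM in PELP1-KD and a log2FC of -0.18 (SE 0.0273, adjusted p = 1.36e-05 by edgeR). DDX21, an RNA helicase that binds rRNA precursors and snoRNAs, had 765, 734 and 723 CPM in the controls and 702, 671 and 699 CPM in PELP1-KD and a log2FC of -0.10 (SE 0.0291, adjusted p = 0.00741 by edgeR). The call of DDX21 was lost with library totals, at -0.051 (adjusted p = 0.139 by edgeR), and with the GC offset, at -0.0098 (adjusted p = 0.710 by edgeR). NPM3, which binds NPM1, had 106, 105 and 110.5 CPM in the controls and 101, 105 and 97.7 CPM in PELP1-KD. Its groups did not overlap, but its log2FC of -0.084 (95% interval -0.17 to 0.0049, adjusted p = 0.113 by edgeR) did not pass. The 60 genes summed to between 10876 and 11147 CPM in the controls and between 10054 and 10168 CPM in PELP1-KD, a difference of -864 CPM. NCL, NPM1, NOLC1 and DDX21, picked here after their values were seen, accounted for 68.0% of this difference, and NCL alone for -340 CPM.

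The mRNAs of the snoRNP proteins were not called as whole sets, where 46.9% of all tested genes were called in either direction. Box C/D snoRNPs guide the methylation of rRNA riboses, and of their 3 genes only NOP56 was called. NOP56, a scaffold of the particle, had 401, 394 and 384 CPM in the controls and 346, 352 and 351 CPM in PELP1-KD, with no overlap and a log2FC of -0.17 (SE 0.0298, adjusted p = 8.07e-05 by edgeR). FBL, fibrillarin, the methyltransferase, had 402, 418 and 390.0 CPM in the controls and 416, 418 and 415 CPM in PELP1-KD. Its groups overlapped and its log2FC was 0.045 (95% interval -0.019 to 0.11, adjusted p = 0.244 by edgeR), which was called higher with library totals, at 0.094 (adjusted p = 0.0147 by edgeR). NOP58, the partner of NOP56, had a log2FC of -0.035 (95% interval -0.11 to 0.038, adjusted p = 0.433 by edgeR).

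Box H/ACA snoRNPs guide the conversion of uridine to pseudouridine, and their 4 genes split. DKC1, dyskerin, the pseudouridine synthase, had 263, 251 and 241 CPM in the controls and 229, 234 and 231 CPM in PELP1-KD, and GAR1 had 84.5, 79.4 and 77.6 CPM in the controls and 74.3, 68.9 and 75.5 CPM in PELP1-KD. Both were lower without overlap, at a log2FC of -0.12 (SE 0.0351, adjusted p = 0.00756 by edgeR) and -0.14 (SE 0.0493, adjusted p = 0.0228 by edgeR). Library totals ended both calls, at -0.072 (adjusted p = 0.0893 by edgeR) for DKC1 and -0.093 (adjusted p = 0.123 by edgeR) for GAR1. GAR1 was also lost without control replicate 1, at -0.11 (adjusted p = 0.0607 by edgeR), and without PELP1-KD replicate 2, at -0.10 (adjusted p = 0.118 by edgeR). NOP10, the smallest subunit of the same particle, had 112, 117 and 118 CPM in the controls and 138, 136 and 132 CPM in PELP1-KD. Every PELP1-KD replicate of NOP10 was above the controls, and its log2FC of 0.23 (SE 0.0390, adjusted p = 7.31e-05 by edgeR) stayed past the threshold in all 13 alternatives run. NHP2, 27.4% of whose exonic bases lie opposite RMND5B, had overlapping groups and a log2FC of 0.0031 (95% interval -0.09 to 0.10, adjusted p = 0.962 by edgeR).

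Of the 18 factors of 60S assembly, 6 were lower, 2 were higher and 10 were not called, with a median log2FC of -0.057. This is 33.3% lower against 24.2% of all tested genes. NOC3L, which forms a heterodimer with NOC2L in pre-60S particles, had 124, 120.1 and 117 CPM in the controls and 98.0, 96.3 and 96.6 CPM in PELP1-KD. Its groups were far apart, and its log2FC was -0.31 (SE 0.0399, adjusted p = 1.98e-06 by edgeR). NOC2L itself had overlapping groups and a log2FC of 0.049 (95% interval -0.027 to 0.13, adjusted p = 0.285 by edgeR). EBNA1BP2, an early 60S factor, had 267, 266 and 264 CPM in the controls and 232, 224 and 225 CPM in PELP1-KD and a log2FC of -0.23 (SE 0.0317, adjusted p = 5.55e-06 by edgeR). RRS1, which helps to bring in the 5S ribonucleoprotein particle, was at a log2FC of -0.29, and NIP7, a pre-rRNA processing factor, at -0.19. The RNA helicases DDX18, at -0.14, and DDX56, at -0.11, completed the group of 6, in each of which the PELP1-KD replicates were below all controls. DDX18 was not called with the GC offset, at -0.025 (adjusted p = 0.420 by edgeR). DDX56 was not called with library totals, at -0.062 (adjusted p = 0.176 by edgeR), without control replicate 2, at -0.10 (adjusted p = 0.0791 by edgeR), or without PELP1-KD replicate 3, at -0.088 (adjusted p = 0.118 by edgeR). Exons of genes on the opposite strand cover 20.2% of the exonic bases of NIP7 and 18.8% of those of EBNA1BP2, and GENCODE lists 5 pseudogenes named after DDX18. Since strand use in the counting is not given, reads of such pairs cannot be told apart.

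WDR12, PES1 and BOP1 form the PeBoW complex, in which WDR12 alone was called. WDR12 had 95.8, 90.6 and 88.9 CPM in the controls and 107, 103 and 107 CPM in PELP1-KD, all PELP1-KD replicates above the controls, and a log2FC of 0.20 (SE 0.0430, adjusted p = 6.03e-04 by edgeR). PES1 had 123, 127 and 125 CPM in the controls and 126, 133 and 127 CPM in PELP1-KD, with overlap and a log2FC of 0.038 (95% interval -0.044 to 0.12, adjusted p = 0.446 by edgeR). BOP1 had only between 182 and 292 reads in the controls, or 10.8, 12.8 and 16.1 CPM in the controls and 14.1, 16.5 and 15.8 CPM in PELP1-KD. Its groups overlapped, and the interval of its log2FC was the widest of the 60 genes, at 0.23 (95% interval 0.0005 to 0.45, adjusted p = 0.0930 by edgeR). Without control replicate 3 the log2FC of BOP1 was 0.38 (adjusted p = 0.00485 by edgeR), and without control replicate 1 it was 0.11 (adjusted p = 0.337 by edgeR). With library totals it was 0.28 (adjusted p = 0.0456 by edgeR), and with the GC offset it was 0.10 (adjusted p = 0.356 by edgeR). The other gene called higher was NOP16, 19.95% of whose exonic bases lie opposite other genes, at 0.12 (SE 0.0429, adjusted p = 0.0225 by edgeR). It was lost with the GC offset, at 0.067 (adjusted p = 0.129 by edgeR), and without control replicate 2, at 0.11 (adjusted p = 0.0956 by edgeR), control replicate 3, at 0.12 (adjusted p = 0.0517 by edgeR), or PELP1-KD replicate 3, at 0.11 (adjusted p = 0.108 by edgeR). The 10 factors not called, among them the GTPases GNL2 and GNL3, the ATPase NVL and the rRNA methyltransferase NOP2, 54.4% of whose exonic bases are shared with another gene, had a log2FC between -0.10 in WDR74 and 0.23 in BOP1.

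Of the 18 factors of 40S assembly, 3 were lower, 1 was higher and 14 were not called, and the median log2FC was 0.0025. This is 16.7% lower and 5.56% higher against 24.2% and 22.7% of all tested genes. UTP3, a factor of the small subunit processome, had 82.5, 76.8 and 76.7 CPM in the control replicates, against 56.2, 53.1 and 57.4 CPM with the PELP1 shRNA. No PELP1-KD replicate came near the controls, and its log2FC of -0.50 (SE 0.0498, adjusted p = 6.61e-08 by edgeR) was the farthest from 0 of the 60 genes after PELP1. UTP20, a large HEAT-repeat scaffold, had 123, 116 and 113 CPM in the controls and 99.99, 98.9 and 102 CPM in PELP1-KD and a log2FC of -0.22 (SE 0.0424, adjusted p = 2.02e-04 by edgeR). WDR43, which joins the processome with the first transcribed part of the precursor, had 236, 223 and 219 CPM in the controls and 198, 192 and 197 CPM in PELP1-KD and a log2FC of -0.20 (SE 0.0359, adjusted p = 9.13e-05 by edgeR). Its fellow subunits of the same subcomplex among the 60 genes did not pass. HEATR1, 23.2% of whose exonic bases lie opposite LGALS8, was at -0.10 (95% interval -0.19 to -0.0068, adjusted p = 0.0723 by edgeR). WDR75 was at -0.068 (95% interval -0.16 to 0.028, adjusted p = 0.237 by edgeR).

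BYSL, bystin, a factor of pre-40S particles, was the gene called higher. It had 151, 147 and 149 CPM in the controls and 163, 172 and 162 CPM in PELP1-KD, with all PELP1-KD replicates above the controls and a log2FC of 0.15 (SE 0.0373, adjusted p = 0.00185 by edgeR). The 14 factors not called had a log2FC between -0.10 in HEATR1 and 0.12 in NOC4L. Among these were the U3 snoRNP protein RRP9, at 0.0081 (95% interval -0.08 to 0.10, adjusted p = 0.887 by edgeR), and the NOB1 endonuclease that forms the end of mature 18S rRNA, at 0.011 (95% interval -0.091 to 0.11, adjusted p = 0.872 by edgeR). The half-width of the 95% interval had a median of 0.088 over the 18 genes and 0.132 over all tested genes.

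RNA polymerase I and its factors had 3 genes lower, 1 higher and 1 not called of 5, where 24.2% of all tested genes were lower and 22.7% were higher. POLR1A, the catalytic subunit, had 129.9, 134 and 135 CPM in the controls and 120.1, 115 and 114 CPM in PELP1-KD, with a log2FC of -0.20 (SE 0.0392, adjusted p = 3.58e-04 by edgeR). POLR1B, the other large subunit, which completes the active site, had 106, 108 and 99.9 CPM in the controls and 111, 113 and 116 CPM in PELP1-KD, and its log2FC was 0.12 (SE 0.0421, adjusted p = 0.0291 by edgeR). So the large subunits of the same enzyme differed in direction, each with groups that did not overlap. The call of POLR1B was lost without control replicate 3, at 0.083 (adjusted p = 0.165 by edgeR), PELP1-KD replicate 2, at 0.12 (adjusted p = 0.0552 by edgeR), or PELP1-KD replicate 3, at 0.10 (adjusted p = 0.125 by edgeR). UBTF, the architectural factor of rDNA promoters, had 157, 166 and 164 CPM in the controls and 149, 149 and 151 CPM in PELP1-KD and a log2FC of -0.12 (SE 0.0364, adjusted p = 0.0124 by edgeR). It was not called without control replicate 2, at -0.10 (adjusted p = 0.0741 by edgeR), or PELP1-KD replicate 1, at -0.11 (adjusted p = 0.0507 by edgeR). TCOF1, treacle, which recruits UBTF and RNA polymerase I, had 284, 284 and 280.0 CPM in the controls and 259, 264 and 258 CPM in PELP1-KD and a log2FC of -0.12 (SE 0.0308, adjusted p = 0.00295 by edgeR). With library totals neither UBTF, at -0.067 (adjusted p = 0.137 by edgeR), nor TCOF1, at -0.071 (adjusted p = 0.0572 by edgeR), was called, so that POLR1A was the 1 gene left lower. RRN3, which links the polymerase to its promoter in growing cells, had 56.4, 51.9 and 51.0 CPM in the controls and 59.7, 50.3 and 60.2 CPM in PELP1-KD. Its groups overlapped, its log2FC was 0.10 (95% interval -0.035 to 0.23, adjusted p = 0.217 by edgeR), and it was called higher without control replicate 1, at 0.14 (adjusted p = 0.0469 by edgeR), or PELP1-KD replicate 2, at 0.18 (adjusted p = 0.0184 by edgeR).

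The level of each role in each replicate was taken as the mean log2 CPM of its genes, relative to the control mean. For the 60S factors it was -0.0135, -0.00339 and 0.0169 in the controls and -0.0523, -0.0501 and -0.0406 in PELP1-KD. For the 40S factors it was 0.0170, -0.00800 and -0.00903 in the controls and -0.0427, -0.0367 and -0.0332 in PELP1-KD. The mean of each set differed from the controls by -0.0476 for the 60S factors and -0.0375 for the 40S factors, with groups that did not overlap. The mean of the 40S factors does not describe most of its genes: 9 of the 18 had a log2FC above 0, the median was 0.0025, and UTP3 alone stood at -0.50. Of the 60S factors, 12 of 18 had a log2FC below 0. The difference of 60S minus 40S factors was between -0.0306 and 0.0259 in the controls and between -0.0134 and -0.00741 in PELP1-KD, with groups that overlapped, so that no shift between the subunits was resolved. RNA polymerase I stood at 0.00621, 0.0135 and -0.0197 in the controls and -0.0287, -0.0774 and -0.0267 in PELP1-KD, with PELP1-KD replicate 2 the lowest. The nucleolar chaperones and scaffolds had the widest gap of the 7 roles, at -0.203. The mean of the PELP1 complex differed by -0.0845, but it includes PELP1, the target of the shRNA, at a log2FC of -0.97. The median log2FC of the complex was 0.060. With library totals the median log2FC was -0.0074 over the 60S factors, 0.052 over the 40S factors and -0.067 over RNA polymerase I, and that of all tested genes was itself shifted to 0.051.

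**Figure D3:**
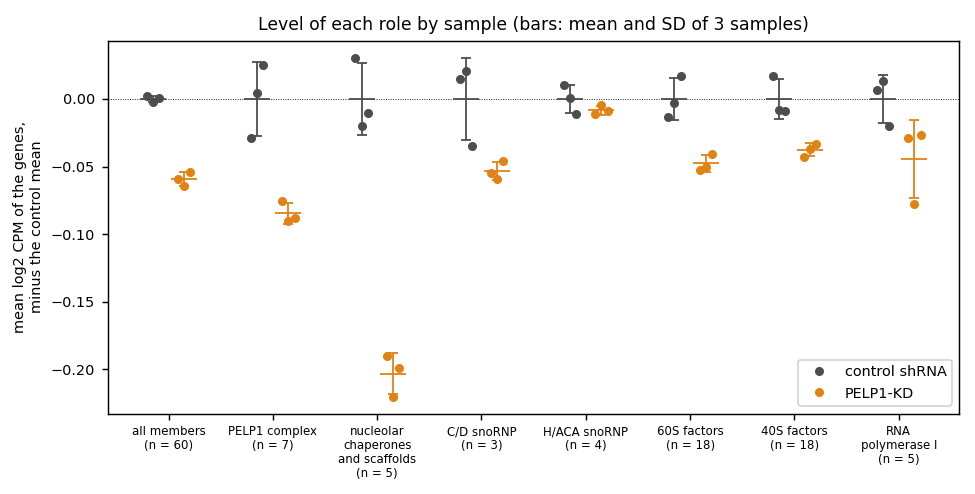
Mean log2 CPM over the genes of each role in each replicate, minus the mean of the control replicates, with the mean and SD of 3 replicates; n is the number of genes. The nucleolar chaperones and scaffolds lie between -0.22 and -0.19 in PELP1-KD, and the H/ACA snoRNP genes overlap between groups. The PELP1 complex includes PELP1, the target of the shRNA, at a log2FC of -0.97, and the median log2FC of its genes was 0.060. With library totals in place of TMM factors, the median change turns positive for the C/D snoRNP genes, at 0.015.

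Per transcript length the members were abundant mRNAs. RPKM is CPM per kilobase of the longest coding transcript, and in control cells its median was 42.9 over the 60 genes and 10.3 over all tested genes with a length. NCL, at 387 ± 11.7 RPKM (SD, n = 3), NPM1, at 377 ± 9.83 RPKM, and FBL, at 348 ± 12.2 RPKM, led the order, and the SDs of NCL and NPM1 left these neighbours unresolved. NOP10 followed at 209 ± 5.15 RPKM, well above DKC1, at 81.7 ± 3.54 RPKM, and GAR1, at 65.8 ± 2.92 RPKM, of the same particle. Within the PELP1 complex WDR18 was at 54.5 ± 4.86 RPKM, TEX10 at 40.1 ± 0.861 RPKM, LAS1L at 29.7 ± 1.56 RPKM and SENP3 at 12.5 ± 0.0837 RPKM. PELP1 was at 11.0 ± 0.405 RPKM in control cells and 5.61 ± 0.166 RPKM in PELP1-KD. NOL9, at 3.93 ± 0.364 RPKM, and MDN1, at 1.81 ± 0.0436 RPKM, were the lowest of the complex. Among the RNA polymerase I genes TCOF1 was highest, at 55.5 ± 0.489 RPKM, and POLR1A lowest, at 10.4 ± 0.212 RPKM. The 20 genes called lower had a median of 64.1 RPKM, the 7 called higher 20.7 and the 33 not called 39.4. Over all tested genes with a length, those called lower also had a higher median, 17.1 RPKM, than those called higher, 9.27, and those not called, 7.98.

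A further 115 genes of the same pathways, all tested, were taken from lists of known pathway genes. Of these, 26 were lower and 21 were higher, or 22.6% and 18.3% against the 24.2% and 22.7% of all tested genes. Among 16 other RNA polymerase I genes, 2 were lower and 3 were higher. TAF1D, a subunit of the promoter selectivity factor, had 53.3, 56.5 and 54.6 CPM in the controls and 45.7, 44.4 and 45.8 CPM in PELP1-KD and a log2FC of -0.27 (SE 0.0506, adjusted p = 1.50e-04 by edgeR). ZNRD1, the older symbol of the polymerase subunit POLR1H, had 42.8, 43.9 and 43.7 CPM in the controls and 53.5, 52.4 and 50.1 CPM in PELP1-KD and a log2FC of 0.26 (SE 0.0517, adjusted p = 3.62e-04 by edgeR). Among 40 other 60S factors, 7 were lower and 5 were higher. EIF6, which keeps free 60S subunits from joining 40S subunits, had 501, 527 and 506 CPM in the controls and 448, 455 and 444 CPM in PELP1-KD and a log2FC of -0.19 (SE 0.0293, adjusted p = 2.49e-05 by edgeR), and the helicase DDX24 was higher at 0.13 (SE 0.0300, adjusted p = 0.00132 by edgeR). Among 44 other 40S factors, 12 were lower and 8 were higher. BMS1, a GTPase of the small subunit processome, had 141, 143 and 142 CPM in the controls and 92.3, 88.9 and 95.9 CPM in PELP1-KD. Its groups were far apart, and its log2FC of -0.62 (SE 0.0403, adjusted p = 1.21e-10 by edgeR) was larger in size than that of UTP3. ABT1 was the 40S factor with the lowest p of those called higher, at 0.28 (SE 0.0450, adjusted p = 3.93e-05 by edgeR).

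The list of 15 genes of the RNA exosome, its cofactors and the XRN2 nuclease, which trim rRNA precursors, had 5 lower, 5 higher and 5 not called, where 24.2% and 22.7% of all tested genes were lower and higher. DIS3, a catalytic subunit of the exosome, had 113, 103 and 107 CPM in the controls and 90.8, 86.1 and 92.4 CPM in PELP1-KD and a log2FC of -0.26 (SE 0.0449, adjusted p = 7.74e-05 by edgeR). EXOSC9, of its core ring, had 137, 132 and 131 CPM in the controls and 154, 165 and 163 CPM in PELP1-KD and a log2FC of 0.27 (SE 0.0387, adjusted p = 8.76e-06 by edgeR). MYC, a transcription factor known to drive ribosome biogenesis genes, had 203, 210.5 and 210.4 CPM in the controls and 219, 229 and 216 CPM in PELP1-KD, and its log2FC was 0.091 (SE 0.0347, adjusted p = 0.0376 by edgeR). The call of MYC was lost with the GC offset, at a log2FC of 0.034 (adjusted p = 0.281 by edgeR), and by DESeq2, at 0.092 (adjusted p = 0.0551). With single replicates left out it was kept without PELP1-KD replicate 3 (adjusted p = 0.0438 by edgeR) and lost in the other 5 cases, with a log2FC between 0.067 and 0.10 and an adjusted p between 0.0602 and 0.135.

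**Figure D4:**
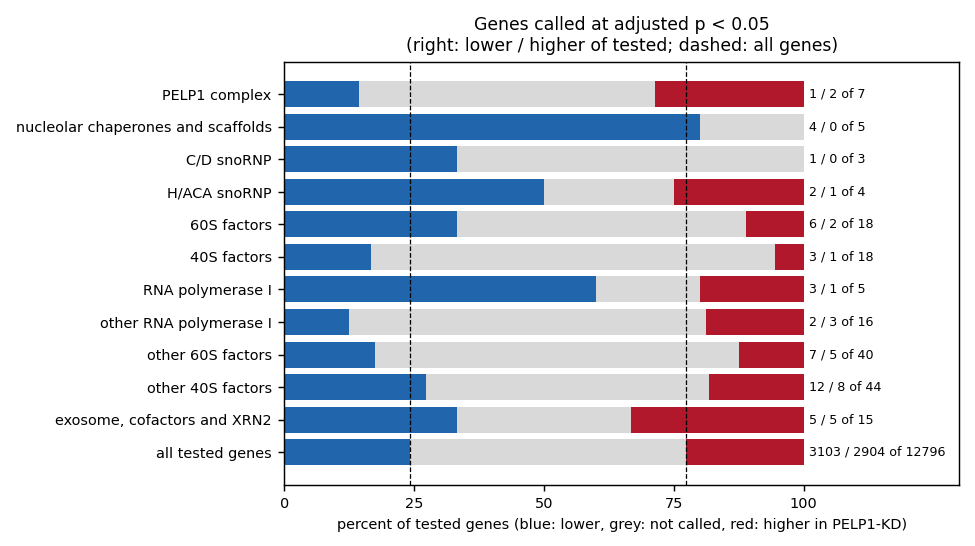
Percent of the tested genes of each role, of the 4 lists of other pathway genes and of all tested genes that were lower (blue, from the left), not called (grey) or higher (red, from the right) in PELP1-KD at an adjusted p below 0.05, with the counts at the right. Dashed lines mark 24.2% lower and 22.7% higher among all tested genes. The nucleolar chaperones and scaffolds, with 4 of 5 lower, lie farthest from them, and with library totals the RNA polymerase I genes drop from 3 lower to 1.

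Base composition moved with the change across the transcriptome. The median log2FC of all tested genes went from -0.16 in the decile of genes with the lowest GC content to 0.13 in the decile with the highest, and the share called lower went from 50.5% to 8.63%. Across genes the Spearman correlation of log2FC with GC content was 0.353 over 11927 genes and 0.219 over the 60 members, where genes are not independent replicates and all share the same 6 libraries. The members called lower had a median GC content of 47.5%, those called higher 48.0% and those not called 54.0%. Its part in the calls was examined by an offset for GC content, a choice made after seeing the data. With the offset, 25 members were lower and 12 were higher, beside 25.4% lower and 24.96% higher among all tested genes. Of the calls of the first fit, 18 of 20 lower and 6 of 7 higher were kept, and DDX21, DDX18 and NOP16 were lost.

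NCL, NPM1 and UTP3 stayed lower. NCL, with a GC content of 47.2%, was at a log2FC of -0.34 (adjusted p = 2.31e-16 by edgeR) with the offset, NPM1 at -0.23 (adjusted p = 1.07e-10 by edgeR) and UTP3 at -0.46 (adjusted p = 1.50e-11 by edgeR). For AT-rich members the fall shrank, with NOC3L, of 37.7% GC, at -0.16 (adjusted p = 1.18e-04 by edgeR) and WDR43, of 40.3%, at -0.10 (adjusted p = 0.00149 by edgeR). For GC-rich members the value moved down, with TCOF1, of 59.4%, at -0.21 (adjusted p = 1.76e-08 by edgeR) and WDR18, of 65.9%, at -0.0071 (adjusted p = 0.883 by edgeR). The median over RNA polymerase I became -0.18, with 3 lower and 2 higher, RRN3 being added at 0.18 (adjusted p = 0.00221 by edgeR). The 40S factors, which had 4 calls before, had 5 lower and 5 higher. DDX10, at 0.17 (adjusted p = 8.18e-05 by edgeR), and DDX52, at 0.17 (adjusted p = 6.92e-05 by edgeR), both helicases of 40S assembly, were among those added.

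**Figure D5:**
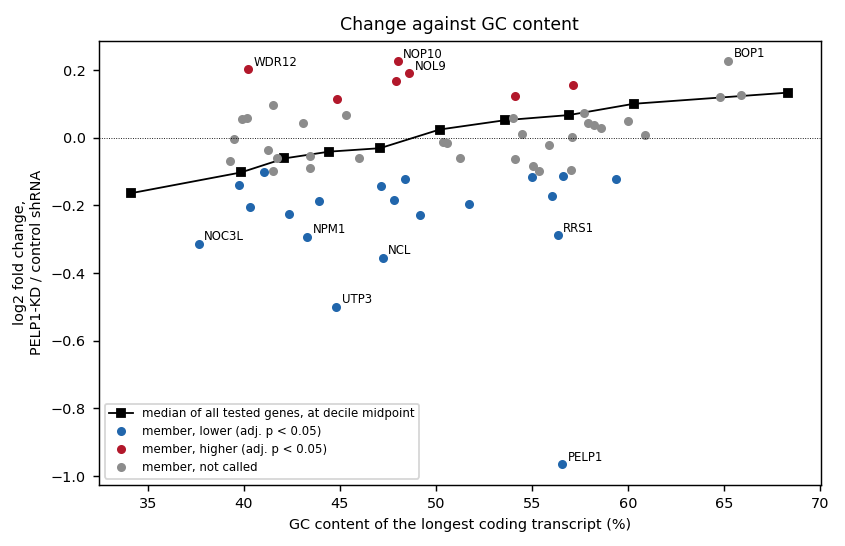
Log2 fold change of the 60 genes, PELP1-KD against control shRNA, against the GC content of the longest coding transcript, colored by call. Black squares are the medians of all tested genes in deciles of GC content, drawn at the midpoint of each decile, and rise from -0.16 to 0.13. PELP1, UTP3, NCL, RRS1 and NPM1 lie well below this line, and WDR12, NOP10 and NOL9 lie above it.

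Promoters of 51 of the 60 genes were matched by symbol in RefSeq (GRCh38.p14), each with 250 bases before and 50 bases after the start of transcription. They were searched on both strands for the E-box CACGTG, a palindrome that MYC and related factors bind. It occurred in 18 of the 51 (35.3%), against 906 of 8933 promoters of tested genes (10.1%) and 7.43% of all 27305 promoters. In the other pathway genes it occurred in 29 of 100 promoters. Of its 20 occurrences in members, 16 (80.0%) began within 50 bases of the start, against 38.2% of the 1023 occurrences in tested genes. By call, 5 of the 16 lower genes with a promoter held the motif, 3 of the 7 higher and 10 of the 28 not called. These sets are small, and a relation of the motif to the direction of change was not tested. The motif was in 6 of 14 60S factors and 7 of 16 40S factors. It was in 0 of 4 nucleolar genes and 0 of 4 RNA polymerase I genes with a promoter. The word CCGGAAG, a site of ETS factors, searched on both strands, was in 20 of 51 members (39.2%) and 19.4% of tested genes, and GGGCGG, a site of SP1, in 68.6% and 71.2%. A match is a description of these letters and not a bound site.

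The windows around the E-box are shown for called members with the motif, apart from PELP1, whose E-box is in the longer sequence below. Each is 30 bases on the coding strand of the gene, 5′ to 3′, with the E-box in capitals. Among the genes called lower, the motif began at position 20 of the transcript in NOC3L, 4 in WDR43, -10 in UTP20 and -237 in EBNA1BP2. In PELP1, also called lower, it began at -242. Negative positions lie before the start.
NOC3L at chr10:94362903-94362932, minus strand: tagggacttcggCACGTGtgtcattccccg
WDR43 at chr2:28894658-28894687, plus strand: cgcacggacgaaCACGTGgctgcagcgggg
UTP20 at chr12:101280083-101280112, plus strand: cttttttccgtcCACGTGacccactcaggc
EBNA1BP2 at chr1:43172790-43172819, minus strand: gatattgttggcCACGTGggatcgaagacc
Among the genes called higher, it began at position 29 in BYSL, 28 and -155 in MDN1, and -11 and -170 in NOP10.
BYSL at chr6:41921515-41921544, plus strand: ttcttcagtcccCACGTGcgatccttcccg
MDN1 at chr6:89819750-89819779, minus strand: cgtgtgctcaccCACGTGtggtgcccctct
MDN1 at chr6:89819932-89819961, minus strand: tttctgtcccacCACGTGctgtgttcgcga
NOP10 at chr15:34343130-34343159, minus strand: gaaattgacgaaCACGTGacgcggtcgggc
NOP10 at chr15:34343289-34343318, minus strand: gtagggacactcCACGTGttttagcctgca
The log2FC of the genes with a window shown here ran from -0.31 in NOC3L to 0.23 in NOP10, and its relation to the motif was not tested.

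The 250 bases before the start of PELP1, whose mRNA the shRNA lowers after transcription, and of NOP10, the member with the farthest rise of those called, are given whole. The E-box is in capitals, once in PELP1, near the end far from the start, and at 2 places in NOP10.
PELP1 at chr17:4704138-4704387, minus strand: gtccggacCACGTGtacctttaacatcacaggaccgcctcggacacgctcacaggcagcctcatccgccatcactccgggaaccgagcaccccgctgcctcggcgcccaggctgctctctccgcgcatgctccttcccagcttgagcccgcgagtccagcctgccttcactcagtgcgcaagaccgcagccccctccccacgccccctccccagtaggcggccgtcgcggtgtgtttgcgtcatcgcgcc
NOP10 at chr15:34343137-34343386, minus strand: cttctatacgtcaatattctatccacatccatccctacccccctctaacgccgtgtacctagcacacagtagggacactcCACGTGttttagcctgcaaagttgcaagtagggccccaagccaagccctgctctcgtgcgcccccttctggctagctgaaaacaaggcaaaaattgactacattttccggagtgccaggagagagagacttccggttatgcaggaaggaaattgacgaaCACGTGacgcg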

How the data were processed

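RNA-seq of 6 samples had been done with a stranded mRNA kit and 50-base single reads. The authors deposited a table of raw read counts per gene symbol for each sample. The submitters' processing notes list bcl2fastq, TopHat2, SAMtools and HTSeq and the build hg19. Versions, gene annotation and the strand setting of the counting are not given in the sources used here. Reads aligned to several places (32.5% to 32.9% of all counts of a library), to no feature (7.64% to 8.19%) or to several features (0.657% to 0.688%) stayed out of library sizes and tests. A read aligned to several places may have been counted more than once in these shares.

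The 60 members, their roles and the other pathway lists were chosen with earlier results of these data known. Of the listed symbols, 12 were matched through older names and 2 through RefSeq synonyms. All counts were tested with edgeR 4.0.16 in R 4.3.3 (TMM factors, between 0.978 and 1.02; filterByExpr with a minimum count of 10; quasi-likelihood test, all tests two-sided), and p-values were adjusted by Benjamini-Hochberg over all 12796 tested genes. SEs were taken from each log2FC and its F statistic. With 17304864 reads or more per library and a biological coefficient of variation of 3.52%, the median half-width of a member's 95% interval was 0.085 on the log2 scale. The study used DESeq2, which was run in version 1.42.0 as an alternative, beside RLE factors, library totals, other filters, the replicate number as a block and leaving out each replicate. An offset for GC content (lowess trend of log counts on GC content, span 0.3) was added after seeing the data. Transcript lengths, GC content, overlaps and pseudogenes came from GENCODE on GRCh38, a build other than that of the counts. They served for RPKM, the GC offset and the remarks on overlaps and pseudogenes, and the first fit did not use them. Promoter sequences came from RefSeq. The fit was tested on simulated data.

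Genes described in detail were all 7 PELP1 complex genes, all 5 RNA polymerase I genes, MYC, and in each other role the lowest p in each direction, the largest change and the highest level per length, and likewise the lowest p in each direction in the lists of other pathway genes. Other members named beside these were chosen after their values were seen. Sums of the 60 genes are descriptions.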

Additional observations from a re-analysis of the deposited data

How the results depend on the processing

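Of the 20 members called lower, 13 were lower in all 13 alternatives, among them PELP1, the target of the shRNA. Of the 7 called higher, WDR12, NOP10 and BYSL were higher in all of them. The share of all tested genes with a call held in every alternative was not taken, so these counts have no background beside them. RLE factors and the filter of at least 10 counts in every sample gave 20 lower and 7 higher. Without a filter these calls were kept, and WDR18 (adjusted p = 0.0196 by edgeR) and BOP1 (adjusted p = 0.0308 by edgeR) were added as higher. Of all genes tested in that fit, 19.2% were lower and 18.4% higher. Library totals gave 15 members higher, 5 of the 60S factors and 4 of the 40S factors, and left 1 RNA polymerase I gene lower. The GC offset, chosen after seeing the data, gave 12 members higher, 5 of the 40S factors lower and 5 higher, 2 RNA polymerase I genes higher and 2 PELP1 complex genes lower, and the median turned negative for the PELP1 complex, at -0.0071, and the 40S factors, at -0.012. DESeq2 left 1 PELP1 complex gene higher, as NOL9 had an adjusted p of 0.0603. With single replicates left out, the counts of genes called higher lay between 3 and 8 for the members and 1 and 3 for the 60S factors. They lay between 0 and 2 for RNA polymerase I and for the PELP1 complex. Each lowest count was reached without PELP1-KD replicate 3. That of the 60S factors was also reached without control replicate 2. The same held for RNA polymerase I without control replicate 3 and for the PELP1 complex without PELP1-KD replicate 1. Over all tested genes, 2470 were higher without PELP1-KD replicate 3 and 2459 without PELP1-KD replicate 2, against 2904 in the first fit. The same replicate numbers do not mark shared cultures in the labels, and deviations of same-numbered replicates correlated at 0.039, 0.065 and -0.078. With the replicate block, 21 members were lower and 9 higher, TEX10 (adjusted p = 0.0469 by edgeR), WDR18 and BOP1 being added, so that 2 PELP1 complex genes were lower, and all tested genes had 3335 lower and 3140 higher. Across these fits the causes of such shifts were not tested. The design limits the text to mRNA levels of 1 cell line and 1 shRNA, with 3 replicates a group, and rRNA itself and proteins were not analysed here.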
